A study of Homo sapiens with 12 samples.

Results

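The genes described here are 10 members of the mitochondrial apoptosis machinery, BCL2, BCL2L1, MCL1, BAK1, BCL2L11, BID, BAD, PMAIP1, BMF and MOAP1, in HEK293T cells and their methionine-independent derivative R1. They were chosen by name, with their values in these same libraries already in view, so every level, fold change and call given for them is a description and not independent evidence. They are 10 of the 23500 entries of the gene table. MOAP1 is listed under 2 identifiers with identical counts, so 11 entries carry the 10 symbols. MOAP1 was counted once among the 10, while both of its entries entered the fit and the adjustment of p-values. All 10 passed the filter on low counts.

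The BCL2 family decides whether the mitochondrial outer membrane is opened, which releases cytochrome c and starts the caspase cascade. Guardian proteins such as BCL2, BCL-XL (the product of BCL2L1) and MCL1 hold the membrane closed, effectors such as BAX and BAK (BAK1) form the pores, and the BH3-only proteins BIM (BCL2L11), BID, BAD, NOXA (PMAIP1) and BMF carry stress signals by occupying the guardians or by activating the effectors. MOAP1 is a retrotransposon-derived protein of the paraneoplastic antigen (PNMA) family with a BH3-like motif. It binds BAX and the tumour suppressor RASSF1A.

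HEK293T is an embryonic kidney line that carries adenovirus E1 sequences and the SV40 large T antigen. It stops dividing on homocysteine, the precursor of methionine, in place of methionine. R1 is a single clone selected from HEK293T for proliferation on homocysteine, so a difference between the lines is a difference between HEK293T and that clone. Total RNA was sequenced after 12 h in complete medium (+Met) or in methionine-free medium with homocysteine (−Met+Hcy), with 3 libraries for each of the 4 groups, and the labels name no further agent or allele. The labels do not say whether the 3 libraries of a group came from separate cultures, so p-values measure the spread between these libraries, which may be technical. R1 libraries are named R1 in their titles and HEK293T in the cell line field, and the titles were followed.

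Library totals were 12664158 to 18771349 counts. The neurofilament genes NEFL (45.7 to 92.6 CPM) and NEFM (7.61 to 72.5 CPM), which HEK293T lines are known to express, were present in every library, whereas the kidney factors PAX2 and LHX1 stayed at 0.205 to 1.33 CPM in HEK293T and at 1.33 to 6.06 CPM in R1. The breast epithelial keratin KRT5 was at 0 in all 12 libraries and the leukocyte gene PTPRC reached at most 0.823 CPM. Replicate 3 of R1 in −Met+Hcy stood apart: it differed from its group mates by a chi-square of 205.1 and 236.3 per gene, against 7.13 to 90.1 for all other pairs of a group, and its deviation from them followed the GC content of the transcripts (Spearman rho = −0.743 across 11247 genes, which are not independent replicates). A GC trend was not confined to this library. In the other groups the same rho ran from −0.338 (R1 +Met replicate 2) to 0.536 (HEK293T +Met replicate 1). Replicate 3 enters every mean and fold change for R1 in −Met+Hcy. Values without it are given where leaving it out changed a call or separated the groups, and for the genes the comparisons turn on.

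The promoters of the 3 genes called higher in HEK293T below are shown because MOAP1, BCL2L1 and PMAIP1 moved together there. The sequences are RefSeq promoter windows of GRCh38.p14 ending at the base before the annotated start, read 5′ to 3′ on the strand of the gene. Capitals mark matches on either strand to the short cyclic AMP response element (CRE, TGACGT) or its full form (TGACGTCA), the GC box (GGGCGG), the CCAAT box (CCAAT), the TATA box (TATAAA) or the core of the amino acid response element bound by ATF4 (TGATGNAA). The MOAP1 window was shortened to the 53 bases next to its start, ending before the nearest exon base of its divergent neighbour LYSET.
MOAP1, minus strand, chr14:93184898-93184950: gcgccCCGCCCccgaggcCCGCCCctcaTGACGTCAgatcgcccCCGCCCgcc
PMAIP1, plus strand, chr18:59899746-59899995: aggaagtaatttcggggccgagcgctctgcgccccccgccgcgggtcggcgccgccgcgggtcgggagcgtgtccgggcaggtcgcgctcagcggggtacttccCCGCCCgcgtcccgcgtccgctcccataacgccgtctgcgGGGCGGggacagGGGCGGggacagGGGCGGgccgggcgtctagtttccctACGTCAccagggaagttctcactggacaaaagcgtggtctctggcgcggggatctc
BCL2L1, minus strand, chr20:31723964-31724213: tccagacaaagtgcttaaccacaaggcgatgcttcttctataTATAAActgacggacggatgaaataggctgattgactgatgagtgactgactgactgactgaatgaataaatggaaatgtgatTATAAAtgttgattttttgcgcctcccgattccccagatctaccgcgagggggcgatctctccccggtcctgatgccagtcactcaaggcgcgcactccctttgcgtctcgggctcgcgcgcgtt
In MOAP1 the palindrome TGACGTCA lay 25 to 18 bases before the RefSeq start, within the 26 bases that GENCODE v44 already assigns to the first exon. It holds 2 overlapping short elements, 1 on each strand, and was flanked by 4 GC boxes in the whole 250-base window, of which 3 are in the stretch shown. PMAIP1 held 1 short CRE, with its letters on the opposite strand, 56 to 51 bases before the start and 4 GC boxes. The window of the more upstream BCL2L1 start held no match to these apart from 2 copies of TATAAA. The amino acid response element core was found in none of the windows of the 10 genes. BAD was the other gene with a short CRE, and MOAP1 was the only one of the 10 with the full form. Of 35116 RefSeq promoter windows of the same 250 bases, 1.65% held the full CRE, 7.1% the short CRE, 42.6% a GC box, 32% CCAAT, 10.7% TATAAA and 3.14% the amino acid response element core. These are matches of letters and not measured binding sites.

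In HEK293T, 12 h without methionine was accompanied by higher transcript levels of MOAP1, PMAIP1 and BCL2L1. MOAP1 was 4.63-fold, PMAIP1 3.12-fold and BCL2L1 2.78-fold higher in mean CPM (counts for every 1000000 counts of the library). These ratios use the library totals as the scale. The log2 fold changes of the model below use another scaling and correspond to smaller ratios. The 3 are a BAX-binding protein, a BH3-only protein and a guardian, while BID (0.625-fold) and BCL2L11 (0.77-fold) were lower on average. "Called" here means a Benjamini-Hochberg adjusted p under 0.05 in an edgeR quasi-likelihood model of all entries, with the libraries scaled by the trimmed mean of M-values (TMM). The 3 genes were called higher and 0 of the 10 were called lower, where 4.25% of the 17162 entries tested were called higher and 2.78% lower. The median log2 fold change was 0.30 over the 10 genes and 0.03 over all entries. In bulk RNA, fewer cells that express a gene and less RNA per cell cannot be told apart.

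MOAP1 (ENSG00000165943, chr14:93182199-93184923) was detected at 4.76, 4.52 and 4.84 CPM in the +Met libraries of HEK293T and at 23.4, 22.7 and 19.3 CPM in −Met+Hcy. The lowest −Met+Hcy library was far above the highest +Met library, and the +Met libraries were nearly equal. The log2 fold change was 1.91 (SE 0.20), the steepest of the called genes among the 10. PMAIP1 (chr18:59899996-59904305), which encodes NOXA, the BH3-only protein that targets MCL1, was at 13.8, 15.5 and 20.1 CPM in +Met and at 42.4, 50.6 and 61.7 CPM in −Met+Hcy. Its groups were separated, with more spread within each than for MOAP1, and the log2 fold change was 1.35 (SE 0.34). BCL2L1 (chr20:31664452-31723989) was at 13.9, 12.7 and 10.6 CPM in +Met and at 35.1, 34.8 and 33.6 CPM in −Met+Hcy. The −Met+Hcy libraries were nearly equal, and the log2 fold change was 1.18 (SE 0.21). Counts were added over transcripts, so the long and short forms of BCL2L1, which act in opposite ways, are not separated. BCL2L1 and MOAP1 were called in all 22 alternative settings, whereas PMAIP1 was called in 14 of 22 and lost its call with the replicate number as a block and when any HEK293T library or replicate 1 of R1 in +Met was left out (log2 fold change 1.18 to 1.64 over the 22).

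BMF, a BH3-only gene whose product is released from the cytoskeleton under stress, was close to absent in HEK293T in +Met, with 0, 4 and 8 reads (0, 0.274 and 0.49 CPM). A count of 0 in the first of these libraries allows a level of up to 0.188 CPM. In −Met+Hcy it gave 33, 35 and 29 reads (2.31, 2.06 and 1.91 CPM). The groups did not overlap, but the model gave a log2 fold change of 2.71 with an SE of 1.18 and the gene was not called. It was called without replicate 3 of R1 in −Met+Hcy and in the fit on the HEK293T libraries alone. Those 2 settings called many more entries higher, 2593 of 17069 and 3035 of 16275, against 730 of 17162 in the fit of all 12 libraries.

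Of the remaining guardians, MCL1 was at 62, 78.1 and 71.8 CPM in +Met and 134.2, 108.9 and 94.6 CPM in −Met+Hcy, without overlap, with a log2 fold change of 0.37 (SE 0.22). BCL2 itself was barely expressed in HEK293T, at 1.31, 1.3 and 1.53 CPM in +Met and 1.96, 1.47 and 1.84 CPM in −Met+Hcy. Its groups overlapped, with a log2 fold change of 0.05 (SE 0.39) from 19 to 39 reads per library over the 4 groups. The effector BAK1 was at 33.9, 29.7 and 41.7 CPM in +Met and at 45.4, 51.2 and 54.3 CPM in −Met+Hcy, with a log2 fold change of 0.22 (SE 0.38). MCL1 and BAK1 were not called. For these, as for every gene, part of the difference in CPM belongs to the scaling. The TMM factors of the HEK293T +Met libraries moved the median of all entries by 0.29 on the log2 scale. On TMM-scaled CPM the groups of MCL1 stayed apart and those of BAK1 overlapped.

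Among the BH3-only genes that were lower, BID, whose product is cleaved by caspase-8 and links death receptors to mitochondria, was at 14.3, 12.1 and 13.6 CPM in +Met and 8.28, 8.23 and 8.42 CPM in −Met+Hcy. The −Met+Hcy libraries were almost identical and all lay below the +Met libraries, with a log2 fold change of −0.98 (SE 0.37). BCL2L11 was at 8.57, 11.3 and 11.1 CPM in +Met and 9.4, 8.46 and 5.99 CPM in −Met+Hcy, overlapping in CPM but not in TMM-scaled CPM, with a log2 fold change of −0.68 (SE 0.23). Neither was called by edgeR in the fit of all 12 libraries. BCL2L11 was called lower by DESeq2, with the GC trend removed and in the fit on the HEK293T libraries alone, and BID in the last of these. Both were called without replicate 3 of R1 in −Met+Hcy, at −0.98 for BID and −0.67 for BCL2L11, a library that does not enter these means but sets the shared estimate of the spread. Many more entries were called lower in these settings than the 477 of 17162 in the fit of all 12 libraries. They were 947 of 17162 by DESeq2, 1180 of 17162 with the GC trend removed, 2527 of 16275 on the HEK293T libraries alone and 2138 of 17069 without replicate 3. BAD, the sensor of growth factor signalling, was at 24.5, 13 and 20.4 CPM in +Met and 15.2, 18.6 and 22.6 CPM in −Met+Hcy, with overlapping groups. BAD shares 14643 bases with GPR137 on the opposite strand, and whether the libraries kept strand is not given in the sources used here. In all, 6 of the 10 were above without overlap in CPM (BCL2L1, MCL1, BAK1, PMAIP1, BMF and MOAP1) and 1 was below (BID), where 48.4% of all entries did not overlap in CPM. On TMM-scaled CPM 5 were above, without BAK1, and 2 were below, BID and BCL2L11.

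**Figure D1:**
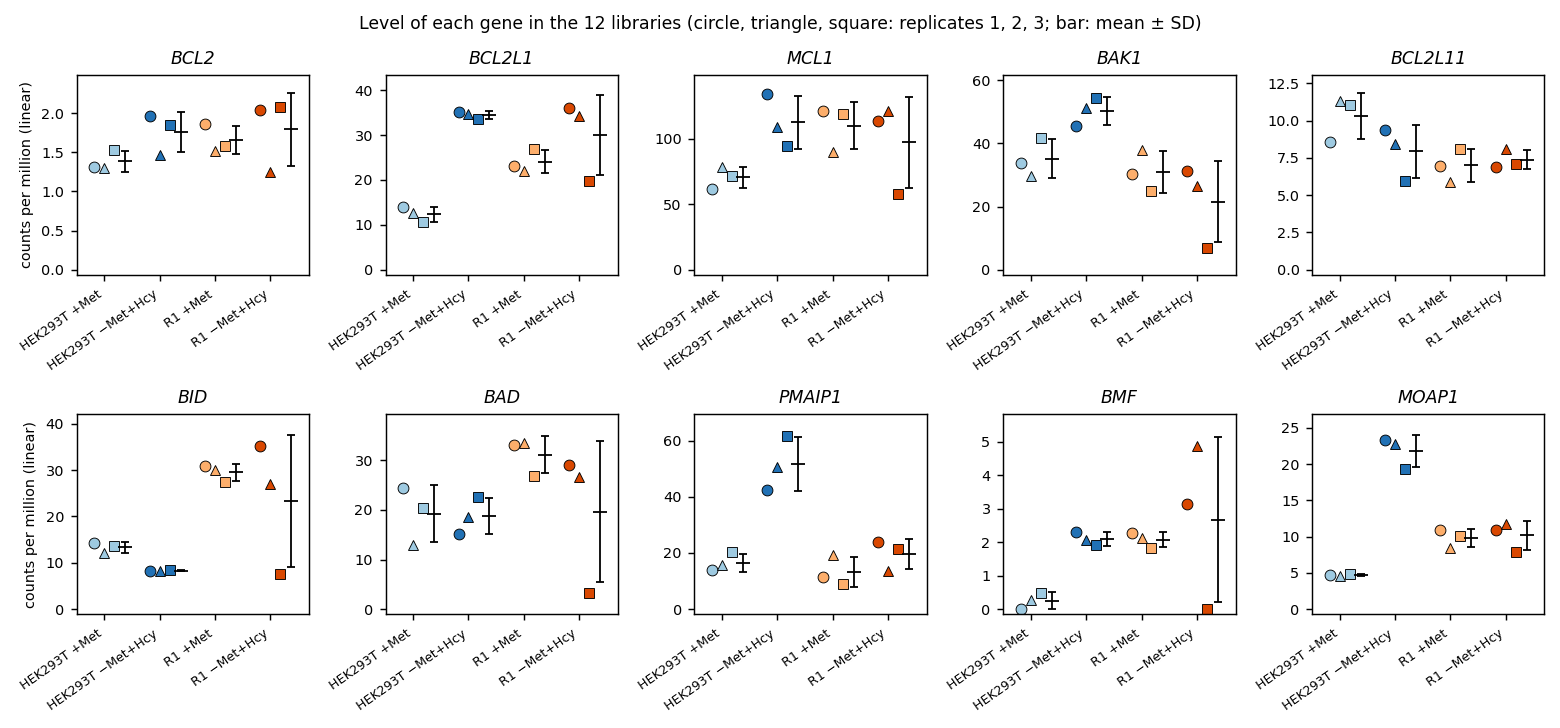
Level of each of the 10 genes in the 12 libraries in CPM on linear axes, 1 panel per gene; circles, triangles and squares are replicates 1, 2 and 3 of each group and the bar is the mean ± SD. MOAP1 rises from below 5 to 19.3 CPM or more in HEK293T and stays between 7.94 and 11.7 CPM in R1, and the square of R1 −Met+Hcy is the lowest point of its group for BCL2L1, MCL1, BAK1, BID, BAD, BMF and MOAP1.

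In R1, none of the 10 genes was called between −Met+Hcy and +Met by edgeR, and none had an unadjusted p under 0.05. DESeq2 likewise called 0, with 0 at an unadjusted p under 0.05. Over all entries edgeR called 0.00583%, which is 1 entry of 17162, and DESeq2 called 33 higher and 7 lower. At an unadjusted p under 0.05 all entries had 974 higher and 362 lower by edgeR, and 1094 higher and 451 lower by DESeq2. MOAP1 in R1 was at 11, 8.47 and 10 CPM in +Met and at 10.9, 11.7 and 7.94 CPM in −Met+Hcy, with a log2 fold change of 0.09 (SE 0.19). The groups overlapped. Without replicate 3 the mean in −Met+Hcy was 11.3 CPM. PMAIP1 was at 11.4, 19.2 and 8.84 CPM in +Met and at 23.9, 13.6 and 21.2 CPM in −Met+Hcy, with a log2 fold change of 0.62 (SE 0.34). The groups overlapped through 1 library of each medium. BCL2L1 was at 23.2, 22.1 and 26.9 CPM in +Met and at 35.9, 34.2 and 19.7 CPM in −Met+Hcy, with a log2 fold change of 0.34 (SE 0.20). Without replicate 3 these log2 fold changes were 0.17 for MOAP1, 0.45 for PMAIP1 and 0.50 for BCL2L1, and none was called. For BCL2L1, the first 2 libraries in −Met+Hcy were at the level of HEK293T in the same medium and replicate 3 was low.

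The other genes of R1 overlapped between the media as well, and 0 of the 10 had separate groups where 10.1% of all entries did. BMF was at 2.26, 2.12 and 1.82 CPM in +Met and at 3.13, 4.88 and 0 CPM in −Met+Hcy, the 0 being replicate 3, where it allows up to 0.16 CPM. MCL1 was at 121.5, 89.8 and 119.1 CPM in +Met and 113.9, 120.9 and 57.5 CPM in −Met+Hcy. BAK1 was at 30.3, 37.9 and 24.8 CPM in +Met and 31.3, 26.4 and 7.03 CPM in −Met+Hcy. In each of the 3 genes replicate 3 alone was low, and without it BCL2L1 and BMF were the 2 of the 10 with separate groups, both higher in −Met+Hcy, where 21% of all entries were then apart. BID was at 31, 30 and 27.5 CPM in +Met and 35.3, 27 and 7.51 CPM in −Met+Hcy. BAD was at 33.1, 33.6 and 26.9 CPM in +Met and 29, 26.7 and 3.25 CPM in −Met+Hcy. BCL2L11 (6.96, 5.92 and 8.13 CPM, then 6.93, 8.1 and 7.09 CPM) and BCL2 (1.86, 1.52 and 1.58 CPM, then 2.04, 1.25 and 2.08 CPM) overlapped between the media, with replicate 3 inside the range of the other libraries or next to it.

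The depression of replicate 3 was uneven over the 10 genes. Its CPM was 0.117 of the mean of the other 2 libraries for BAD, whose canonical transcript has a GC content of 65.8%, 0.244 for BAK1 (58.6%), 0.241 for BID (48%), 0.49 for MCL1 (45.1%), 0.562 for BCL2L1 (56.6%) and 0.70 for MOAP1 (48.9%). It was 0.943 for BCL2L11 (45.5%), 1.13 for PMAIP1 (36.6%) and 1.26 for BCL2 (44.4%). The GC-rich transcripts were generally the lower ones, with BID and MCL1 lower than BCL2L1 in spite of a lower GC content. The part of GC content in these values was not tested gene by gene. PNMA3, a relative of MOAP1, gave 0 to 7 reads in the R1 libraries, with 0 in replicate 3, and 39 to 68 reads in the HEK293T libraries. At so few reads, whether replicate 3 was depressed in this gene as well cannot be told.

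**Figure D2:**
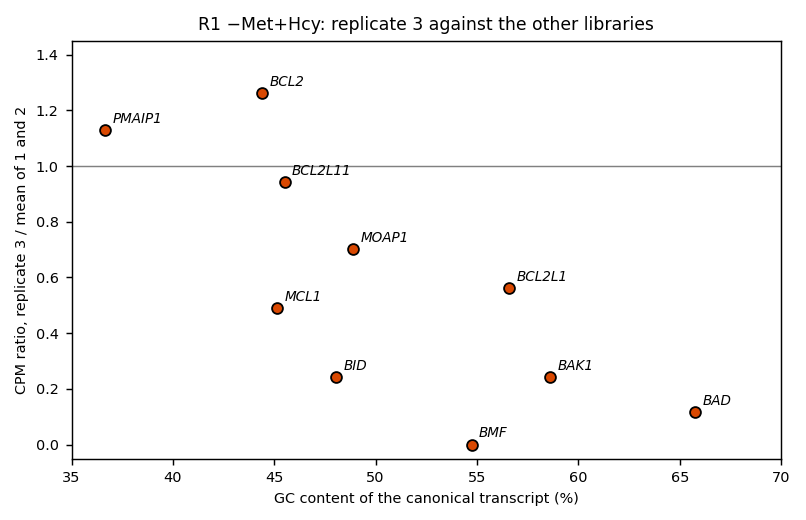
Ratio of the CPM in replicate 3 of R1 −Met+Hcy to the mean of replicates 1 and 2 (linear axis), against the GC content in percent of the canonical transcript, 1 point per gene. BAD at 65.8% GC stands at 0.117, BMF at 0, and PMAIP1, BCL2 and BCL2L11 lie near the line at 1.

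The responses of the lines were compared directly as the difference R1 minus HEK293T of the log2 fold changes. MOAP1 was the only one of the 10 called, with a difference of −1.82 (SE 0.28, edgeR adjusted p = 0.0459), where 0.0583% of entries (10 of 17162) were called. The call held in 7 of 21 alternative settings, all with a difference between −2.16 and −1.72. It was lost when any 1 of the libraries other than replicate 3 of R1 in −Met+Hcy was left out, and it held without that library. It was also lost with no filter on low counts, with the replicate block and with 1 entry per set of identical copies. In the last of these 4 of 16511 entries were called. That setting removed the identical copies of every gene and refitted the model, so the part of the doubled entry of MOAP1 alone was not tested. BCL2L1 had a difference of −0.84 (SE 0.29), PMAIP1 of −0.74 (SE 0.47) and BCL2L11 of 0.80 (SE 0.33), and these were not called, so a smaller response of BCL2L1 or PMAIP1 in R1 was not shown. Leaving out replicate 3 also brought BID past the threshold, with a difference of 1.01, where 68 of 17069 entries were called positive and 220 negative. Over the 10 genes the median difference was −0.64, against −0.06 over all entries.

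**Figure D3:**
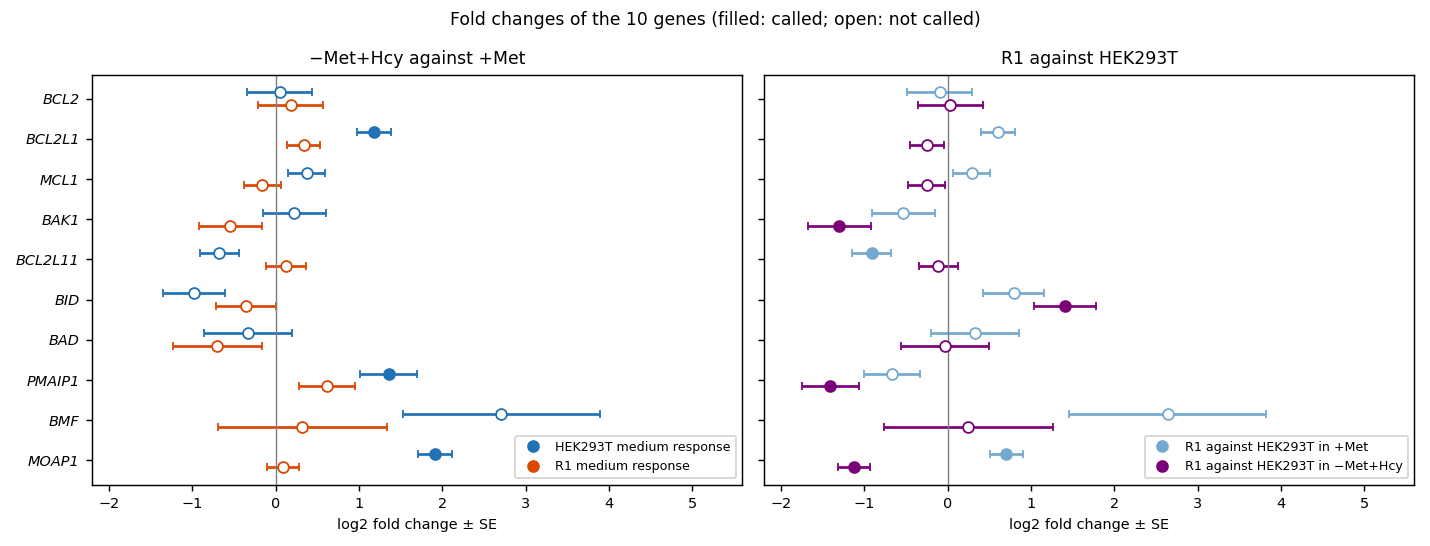
Log2 fold change with its SE from the edgeR model for the 10 genes, −Met+Hcy against +Met in each line (left) and R1 against HEK293T in each medium (right); filled points were called and open points were not. MOAP1 lies at 1.91 in HEK293T and at 0.09 in R1, and its difference between the lines turns from 0.70 in +Met to −1.12 in −Met+Hcy.

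In complete medium, R1 expressed more MOAP1 and less BCL2L11 than HEK293T. MOAP1 was 2.09-fold higher in mean CPM (9.82 ± 1.26 against 4.70 ± 0.16, SD, n = 3), with every R1 library above every HEK293T library and a log2 fold change of 0.70 (SE 0.20). BCL2L11, which encodes the BAX and BAK activator BIM, was at 0.679 of the HEK293T mean (7 ± 1.11 against 10.3 ± 1.52 CPM), without overlap and with a log2 fold change of −0.91 (SE 0.24). MOAP1 was called higher and BCL2L11 lower, where 5.69% of entries were called higher and 4.48% lower. Both calls were sensitive: MOAP1 was called in 11 of 22 alternatives, with log2 fold changes of 0.63 to 1.06, and BCL2L11 in 13 of 22, with −1.02 to −0.56. MOAP1 lost its call when any 1 of 9 libraries was left out and kept it without replicate 2 of R1 in +Met or replicate 2 or 3 of R1 in −Met+Hcy. BCL2L11 kept its call without replicate 1 or 3 of HEK293T in −Met+Hcy or any library of R1 in −Met+Hcy and lost it without the other 7.

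BMF, BID, BCL2L1, BAD and MCL1 were also above HEK293T in every R1 library in +Met and were not called. BMF was 8.11-fold higher in mean CPM, BID 2.22-fold (29.5 ± 1.81 against 13.3 ± 1.13 CPM), BCL2L1 1.94-fold (24.1 ± 2.55 against 12.4 ± 1.68 CPM), BAD 1.62-fold and MCL1 1.56-fold. For BAD and MCL1 the groups overlapped on TMM-scaled CPM, and the scaling moved the median of all entries by 0.35 on the log2 scale in this comparison. Without replicate 3 of R1 in −Met+Hcy, BCL2L1 (0.60), BID (0.79) and BMF (2.64) were called as well, the log2 fold change standing in brackets. All 3 were also called in the fit on the +Met libraries alone, and BCL2L1 also by DESeq2 and with library totals as the scale. These settings called more entries higher than the 976 of 17162 in the fit of all 12 libraries. They were 2911 of 17069 without replicate 3, 2698 of 16201 on the +Met libraries alone, 1519 of 17162 by DESeq2 and 2251 of 17162 with library totals. On TMM-scaled CPM, BCL2L1, BID, BMF and MOAP1 stayed above HEK293T without overlap. Of these only MOAP1 was called in the fit of all 12 libraries. BMF in R1 in +Met had a mean close to that of HEK293T in −Met+Hcy (2.07 ± 0.23 against 2.09 ± 0.21 CPM). In all, 6 of the 10 were above and 1 was below without overlap in CPM, where 47.2% of entries did not overlap. On TMM-scaled CPM 4 were above and 1 was below.

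In −Met+Hcy the order of the lines was turned around for MOAP1. R1 held 10.2 ± 2 CPM against 21.8 ± 2.2 CPM in HEK293T (SD, n = 3), which is 0.468 of the HEK293T mean, with a log2 fold change of −1.12 (SE 0.20). PMAIP1 was at 0.38 of the HEK293T mean (19.6 ± 5.32 against 51.5 ± 9.69 CPM), with a log2 fold change of −1.41 (SE 0.34). BAK1 was at 0.429 of it (21.6 ± 12.8 against 50.3 ± 4.49 CPM), with a log2 fold change of −1.30 (SE 0.38). For these 3 genes every R1 library lay below every HEK293T library and all 3 were called lower, where 6.76% of entries were called lower. BID was the 1 gene called higher, where 7.2% of entries were, with a log2 fold change of 1.41 (SE 0.37). Its groups overlapped only because replicate 3 of R1 was at 7.51 CPM, and without it BID was at 31.1 CPM against 8.31 CPM. Without replicate 3 the mean of BAK1 in R1 was 28.9 CPM and its log2 fold change was −0.91, and BAK1 remained called. Without it the log2 fold change was −1.04 for MOAP1 and −1.57 for PMAIP1.

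MOAP1 kept its call in this comparison in 21 of 22 alternatives (−1.19 to −1.04), the exception being the fit on the 6 libraries of the comparison alone, in which 0 of the 10 were called. PMAIP1 was called in 18 of 22 (−1.57 to −1.17), BID in 15 (1.01 to 1.80) and BAK1 in 10 (−1.64 to −0.91). The call of PMAIP1 was lost without replicate 2 or 3 of HEK293T in −Met+Hcy or replicate 2 of R1 in −Met+Hcy. That of BID was lost without any 1 HEK293T library in −Met+Hcy or without replicate 1 or 2 of R1 in −Met+Hcy. That of BAK1 held, of the 12 libraries left out in turn, only without replicate 2 of R1 in +Met or replicate 1 or 3 of R1 in −Met+Hcy. The other 6 genes overlapped between the lines, and 3 of the 10 were below without overlap and 0 above, where 31.7% of entries did not overlap. Leaving replicate 3 out gave 3 above (BID, BAD and BMF) and 3 below (BAK1, PMAIP1 and MOAP1), where 55% of entries were then apart.

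Levels of different genes were compared per kilobase of the canonical GENCODE v44 transcript. In HEK293T in +Met, BAD, MCL1 and BAK1 led with 20.8, 17.9 and 16.2 CPM per kb and overlapping libraries. PMAIP1 (8.69 CPM per kb), BID (6.11 CPM per kb) and BCL2L1 (4.82 CPM per kb) followed, each apart from the next. BCL2L11 and MOAP1 overlapped at 2.02 and 1.95 CPM per kb, and BCL2 and BMF were last at 0.201 and 0.0543 CPM per kb. In −Met+Hcy, PMAIP1 moved up to 27.1 CPM per kb, within the range of MCL1 at 28.5, and MOAP1 rose above BID to 9.05 CPM per kb. MCL1 is the guardian that NOXA, the product of PMAIP1, binds. In R1, BAD and MCL1 led in +Met with 33.6 and 27.9 CPM per kb, and BID, at 13.5 CPM per kb, overlapped BAK1 at 14.3. In R1 in −Met+Hcy the 6 leading genes, MCL1, BAD, BCL2L1, BID, PMAIP1 and BAK1, had wide ranges through replicate 3. MCL1 lay above BCL2L1, PMAIP1 and BAK1 without overlap, and all other pairs of these 6 overlapped. BCL2 was at 0.201 to 0.26 CPM per kb in the means of all 4 groups.

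The genes whose pattern over the 12 libraries was most like that of MOAP1 were EGFLAM (Pearson r = 0.972 of log2 CPM), PARP16 (0.966), SESN2 (0.964), CRYBB2 (0.958) and ZNF623 (0.956), among 11643 symbols with a group mean of at least 5 CPM. These are descriptions over libraries that share depth and 4 group means. SESN2, a sestrin that restrains mTORC1 when amino acids are short, was at 11.4 ± 1.86 CPM in HEK293T in +Met and 92.8 ± 14 CPM in −Met+Hcy, and at 21.9 ± 1.98 and 25.8 ± 11.9 CPM in R1. PARP16, an enzyme of the endoplasmic reticulum membrane that acts in the unfolded protein response, was at 5.31 ± 0.148 and 14.1 ± 0.876 CPM in HEK293T and at 8.16 ± 0.516 and 9.28 ± 1.86 CPM in R1. EGFLAM, which encodes the matrix protein pikachurin, was at 1.20 ± 0.138 and 5.77 ± 1.02 CPM in HEK293T and at 2.47 ± 0.273 and 2.50 ± 0.347 CPM in R1. All 3 had their highest mean in HEK293T in −Met+Hcy, their lowest in HEK293T in +Met and both means of R1 in between, as MOAP1 did. Of the 7 other genes that reached this level (BCL2 and BMF did not), BCL2L1 was the nearest to MOAP1 (r = 0.872), followed by PMAIP1 (0.625) and MCL1 (0.56), while BID (−0.498) and BCL2L11 (−0.482) ran the other way. The order at the top was unstable, since 1 of the 5 leading genes was among the leading 5 when replicate 3 of R1 in −Met+Hcy was left out.

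A further 62 genes of the pathway were listed by function, of which 59 passed the filter on low counts. Of the other members of the BCL2 family, 0 of 14 tested were called in each of the 5 comparisons by edgeR and by DESeq2. Over all entries the shares called ran from 0.00583% in R1 to 7.2% higher between the lines in −Met+Hcy, so nothing about the family is read from this count. At an unadjusted p under 0.05 edgeR gave 1 (BNIP3, a mitophagy receptor, lower in HEK293T in −Met+Hcy, named after its value was seen), and DESeq2 gave 1 in each medium response and 1 between the lines in +Met, all lower. Of all 17162 entries edgeR had 1629 lower at that p in HEK293T. DESeq2 had 1782 lower in HEK293T, 451 in R1 and 2330 between the lines in +Met. The effector BAX, the partner of MOAP1, was at 64.3 to 85 CPM in HEK293T in +Met and at 61.4 to 64.3 CPM in −Met+Hcy. BBC3, the BH3-only gene that encodes PUMA, was at 1.1 to 3.06 CPM and then at 4.88 to 5.75 CPM, and in R1 its replicate 3 in −Met+Hcy was at 0 where the other libraries of R1 were at 1.66 to 3.82 CPM. BAX and BBC3 are given for their roles and not by the rule for named genes.

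In HEK293T, 4 of the 59 genes were called, 1 higher and 3 lower, where 4.25% of all entries were called higher and 2.78% lower. The 4 genes listed as outer membrane partners had a median log2 fold change of −1.09 and were all lower, with 3 called by edgeR and all 4 by DESeq2. The one not called by edgeR was VDAC3, named after its value was seen (−1.03, edgeR adjusted p = 0.0615). VDAC1, the main porin of the outer membrane, fell from 249.9–264.4 CPM to 132.4–144.4 CPM, a log2 fold change of −1.19 with a Benjamini-Hochberg adjusted p of 0.00509 by the edgeR quasi-likelihood test. VDAC2, the porin that holds BAK, fell by 0.74 on the log2 scale (edgeR adjusted p = 0.0204), and MTCH2, the receptor of truncated BID, fell by 1.14 (edgeR adjusted p = 0.0111). Of the transcription factors known to act on BH3-only genes, 1 of the 5 listed was called. DDIT3 (CHOP), the factor of the unfolded protein response that acts on BCL2L11 and other BH3-only genes, rose from 5.57–6.45 CPM to 18.9–20.9 CPM (log2 fold change 1.39, edgeR adjusted p = 0.00932). With each of the 12 libraries left out in turn, VDAC1 was called in all 12 cases, DDIT3 in 10, MTCH2 in 8 and VDAC2 in 7, and every loss came with a HEK293T library. The 5 remaining lists, which hold the relatives and partners of MOAP1, the apoptosome and caspases, the inhibitors of apoptosis, the death receptors and the proteins that turn over MCL1 and BIM, had 0 called by edgeR, with 4 higher and 1 lower at an unadjusted p under 0.05. DESeq2 called 1 of them, BIRC3, higher (named after its value was seen). Of all 17162 entries, edgeR had 2209 higher and 1629 lower at an unadjusted p under 0.05, and DESeq2 called 1290 higher and 947 lower.

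In R1 the medium was accompanied by no called change in the 59 genes (0 by edgeR, with 5 higher and 0 lower at an unadjusted p under 0.05, and 0 by DESeq2, with 5 higher and 1 lower). Of all 17162 entries edgeR called 1, with 974 higher and 362 lower at an unadjusted p under 0.05. DESeq2 called 33 higher and 7 lower, with 1094 higher and 451 lower at an unadjusted p under 0.05. FAS, the death receptor, had a log2 fold change of 0.98 and DDIT3 of 0.74, each with an edgeR adjusted p of 0.622. The difference of responses was not called by edgeR for any of the 59 (4 positive and 2 negative at an unadjusted p under 0.05). Of all 17162 entries edgeR called 10, with 793 positive and 866 negative at an unadjusted p under 0.05, and DESeq2 called 90 positive and 155 negative. Among the 59, the lowest p-values of the difference were those of VDAC1 (difference 1.22, edgeR adjusted p = 0.189) and MTCH2 (1.05, edgeR adjusted p = 0.328), and DESeq2 called VDAC1. VDAC1 was also called by edgeR without replicate 3 of R1 in −Met+Hcy, where 68 of 17069 entries were called positive and 220 negative.

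**Figure D4:**
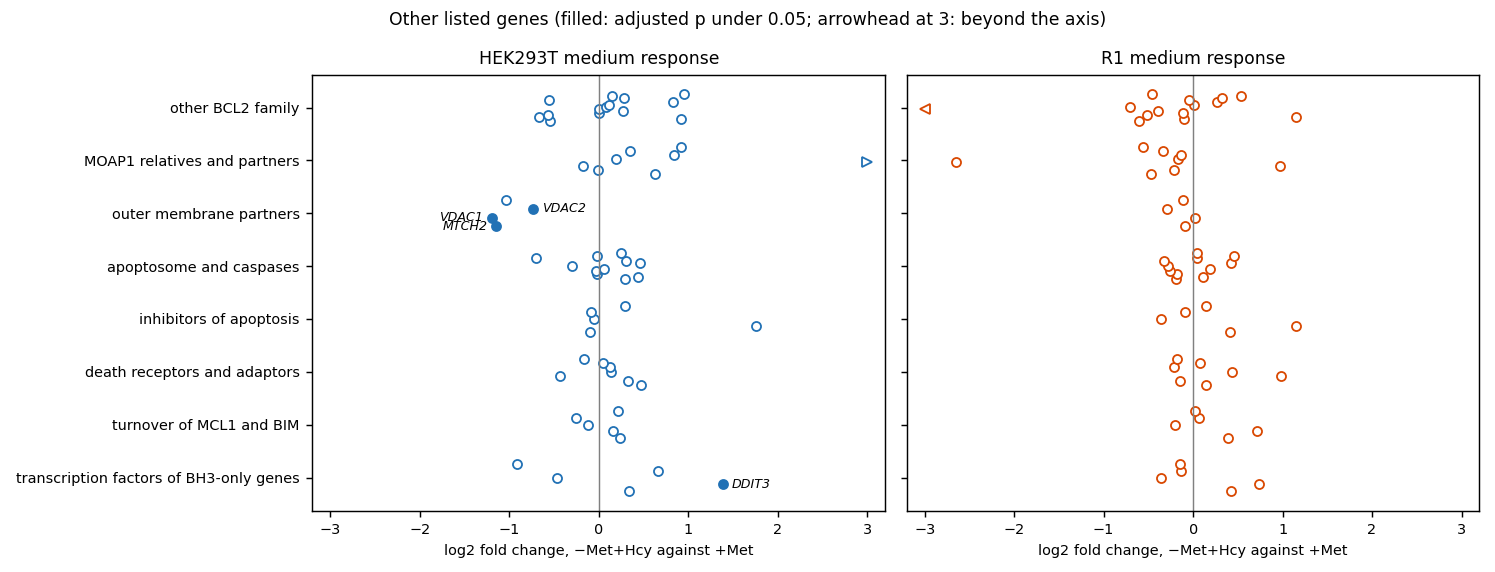
Log2 fold change, −Met+Hcy against +Met, of the other listed genes by function in HEK293T (left) and R1 (right); filled and named points have an edgeR adjusted p under 0.05, and an arrowhead stands for a value beyond the axis. VDAC1, VDAC2 and MTCH2 lie below 0 and DDIT3 above 0 in HEK293T, and no point is filled in R1.

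Between the lines, PNMA3 set R1 apart in both media. It was at 2.57 to 4.77 CPM in HEK293T and at 0 to 0.51 CPM in R1, with log2 fold changes of −5.0 in +Met and −3.85 in −Met+Hcy (edgeR adjusted p = 0.00435 and 0.00829). APAF1, the core of the apoptosome, was higher in R1 in +Met, at 48.1 to 69.5 CPM against 15.6 to 30.8 CPM (log2 fold change 1.04, edgeR adjusted p = 0.0138). TP73, a transcription factor that can induce BH3-only genes, was higher in R1 in +Met (1.32, edgeR adjusted p = 0.0317) and in −Met+Hcy (2.08, edgeR adjusted p = 0.00287). VDAC2 was lower in R1 in +Met (−0.66, edgeR adjusted p = 0.0253). In −Met+Hcy, VDAC1 (0.70, edgeR adjusted p = 0.0323) and FAS (1.00, edgeR adjusted p = 0.0483) were higher in R1, and FOXO3, a transcription factor of BH3-only genes, was lower (−0.95, edgeR adjusted p = 0.0486). VDAC1 was among the genes that had fallen in HEK293T in that medium, and the comparisons share those HEK293T libraries. In total edgeR called 4 of the 59 genes in +Met (2 higher and 2 lower), where it called 5.69% of all entries higher and 4.48% lower. In −Met+Hcy it called 5 (3 higher and 2 lower), where it called 7.2% of all entries higher and 6.76% lower. DESeq2 called 9 of the 59 in +Met and 12 in −Met+Hcy. Of all 17162 entries DESeq2 called 1519 higher and 1365 lower in +Met, and 1814 higher and 1729 lower in −Met+Hcy. With each of the 12 libraries left out in turn, PNMA3 kept its call in both media and TP73 in −Met+Hcy. In +Met, APAF1 was called in 8 of the 12 cases, TP73 in 7 and VDAC2 in 7, and in −Met+Hcy VDAC1 was called in 5, FAS in 3 and FOXO3 in 1. Without replicate 3 of R1 in −Met+Hcy, the log2 fold changes in that medium were −3.27 for PNMA3, 1.95 for TP73, 0.45 for VDAC1, 0.77 for FAS and −0.82 for FOXO3, of which FOXO3 was no longer called.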

How the data were processed

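RNA of HEK293T and R1 was measured in 12 libraries, 3 in each of 4 groups taken from the sample titles. Per the labels and the study's methods, the authors quantified reads with kallisto 0.48.0 against GRCh38. The deposited values are estimated counts, which the authors summed per Ensembl gene and turned into integer counts, without scaling. The annotation release and strandedness are not given in the sources used here. Transcript-level estimates can split reads between overlapping genes and near-identical copies. Libraries of other cell lines were not analysed here.

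The 10 genes and all lists were chosen with earlier results of these data known. Totals were 12664158 to 18771349 counts, and a count of 3 was taken as the limit that a count of 0 allows, for counting error only. Entries with a summed count of at least 10 (17162 of 23500; 868 of the 23500 have no symbol) were fitted in R 4.3.3 with edgeR 4.0.16 (limma 3.58.1), glmQLFit and glmQLFTest, TMM scaling, 4 group means and 8 residual degrees of freedom, with Benjamini-Hochberg adjustment over all 17162 and a threshold of 0.05. The test was also run on simulated counts with a dispersion of 0.05, where the common dispersion of the data was 0.109. The simulation held no GC trend and no outlying library, so it does not cover these features of the data. Named were all 10 genes, the other listed genes called in a comparison (at most the 5 with the lowest p) or else the 2 with the lowest p, and the 5 symbols most correlated with MOAP1. Alternatives were RLE scaling, other filters, DESeq2 1.42.0, robust estimation, a replicate block, the compared groups alone, single copies, removal of the GC trend, an added threshold of 1 on the log2 fold change, each library left out, and, chosen after seeing the data, library totals as the scale. A gene of the lists is not reported here and was left out of their counts. The likeness, the promoters and the levels per kilobase carry no test. Promoters come from RefSeq (GRCh38.p14), where all 10 genes matched, and gene coordinates from GENCODE v44.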

Additional observations from a re-analysis of the deposited data

Results flagged for a closer look

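The response of MOAP1 to −Met+Hcy differed between the lines by −1.82 on the log2 scale (R1 minus HEK293T, SE 0.28), past the threshold in the edgeR test of the difference itself (adjusted p = 0.0459). The call held in 7 of 21 alternatives and was lost, among others, with 1 entry per set of identical copies. Every HEK293T library in −Met+Hcy lay above every HEK293T library in +Met, whereas the R1 libraries of the 2 media overlapped. The gene was among those chosen with this value in view. No group held more than 3 libraries, too few for a test of single outlying values within a group.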

How the results depend on the processing

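No fold change of the 10 genes that was called changed its direction under any of the 22 alternatives. Counts of calls moved more. For the 10 genes they were 3, 0, 1, 2 and 4 (HEK293T response, R1 response, difference of responses, R1 against HEK293T in +Met, and the same in −Met+Hcy). On the libraries of the compared groups alone they became 6 in the HEK293T response, 5 in +Met and 0 in −Met+Hcy. Over all entries these fits called 3035 higher and 2527 lower of 16275 in the HEK293T response. They called 2698 and 2167 of 16201 in +Met, and 276 and 222 of 16523 in −Met+Hcy. With no filter on low counts the difference had 0 and +Met 1, with 1 entry per set of identical copies the difference had 0, and with a fold threshold added +Met had 0. Leaving out 1 library at a time gave 2 to 6, 0, 0 to 2, 0 to 5 and 1 to 4, with the highest counts of the HEK293T response, the difference and +Met without replicate 3 of R1 in −Met+Hcy, which lowered the common dispersion from 0.109 to 0.0349. Without that library, 2593 entries of 17069 were called higher and 2138 lower in the HEK293T response. The numbers were 2911 and 2673 in +Met, and 68 positive and 220 negative for the difference.

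The other listed genes had 4, 0, 0, 4 and 5 calls. They became 9 in +Met and 12 in −Met+Hcy with DESeq2, and 1 for the difference with DESeq2 or with the GC trend removed. Removing the GC trend also gave 8, 9 and 11 for the HEK293T response, +Met and −Met+Hcy. On the compared groups alone the counts of the other listed genes were 20, 12 and 0. With library totals as the scale, chosen after seeing the data, the HEK293T response had 8 and +Met 8, and with a fold threshold −Met+Hcy had 2. Leaving out 1 library gave 1 to 16, 0, 0 to 1, 1 to 15 and 2 to 13. Without replicate 3 of R1 in −Met+Hcy, 2680 of 17069 entries were called higher and 2488 lower in −Met+Hcy. The numbers called over all entries moved across these settings as well, so nothing about the listed genes is read from the changes. The causes were not tested.

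Whether the replicate numbers pair the samples is not known. Correlations of same-numbered deviations ran from −0.718 to 0.595. They cannot decide it, because the deviations also carry the GC trends of single libraries. The replicate block gave 2 for the HEK293T response, 0 for the difference, 0 in +Met and 2 in −Met+Hcy among the 10 genes, and 3 for the HEK293T response, 2 in +Met and 2 in −Met+Hcy among the others. Depth limits BCL2 and BMF, with at most 39 and 74 reads in a library, and 3 libraries per group limit every comparison.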
